A study of Homo sapiens with 6 samples.

Results

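The small proline-rich (SPRR) proteins are precursors of the cornified envelope, the insoluble protein shell that forms under the membrane of terminally differentiating keratinocytes. Transglutaminases cross-link them to each other and to other envelope proteins such as loricrin and involucrin, for which the SPRR chains serve as flexible bridges. Their genes stand side by side in the epidermal differentiation complex, the same gene cluster that holds cornulin. The 9 genes described here are SPRR1A, SPRR1B, SPRR2A, SPRR2B, SPRR2D, SPRR2E, SPRR2F, SPRR2G and SPRR3, chosen by name as members of the family, out of 57820 genes in the count table. All 9 had a row, and 7 of them were among the 16396 genes with enough counts to be tested.

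RNA was sequenced from Cal27 cells, a line from a human squamous carcinoma of the tongue, in 3 groups with 2 libraries each, called biological replicates in the design text. The first group carried a cornulin (CRNN) overexpression construct on a lentivirus, and the second carried a GFP control vector on a lentivirus. Both were transduced with polybrene at 8 µg/ml and harvested after 48 h. The third group was untreated Cal27 cells, for which the labels give no virus, polybrene or harvest time, so that comparisons with it cannot separate these from each other. The labels do not state the promoter of the construct, a selection step or single-cell cloning, and all 6 libraries carry the same batch number. CRNN had levels of 964 and 1028 CPM (counts divided by the TMM-adjusted size of the library) in the CRNN libraries, 3.06 and 2.55 CPM in the GFP libraries and 3.51 and 2.08 CPM in the untreated libraries.

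The 6 libraries held between 11817105 counts, in GFP replicate 2, and 28041227 counts, in untreated replicate 1, so that 3 counts corresponded to between 0.115 and 0.239 CPM. Replicates lay closest in the CRNN group: the median gap over tested genes was 0.19 log2 units between the CRNN replicates, 0.46 between the GFP replicates and 0.42 between the untreated ones. Across genes, which do not count as replicates, GC content and the level relative to the 6-library mean had a Spearman rho of 0.642 in GFP replicate 1 but of -0.391 in GFP replicate 2. At the GC content and length of the 7 tested members, the fitted trend was between -0.32 and 0.14 log2 units in every library. All 8 squamous keratinocyte markers, among them KRT5, KRT14 and TP63, were tested, and their summed level was 4077 to 6198 CPM, against 3.92 to 9.10 CPM for 6 fibroblast and 0.802 to 1.76 CPM for 5 immune markers. The endothelial markers summed to 53.0 CPM in untreated replicate 1 and to 8.05 to 14.0 CPM in the other libraries, which was mostly CDH5.

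The SPRR genes lie side by side on chromosome 1 in GRCh38 (GENCODE release 44). SPRR1A (152984081 to 152985814), SPRR3 (153001747 to 153003856) and SPRR1B (153031203 to 153032900) are on the plus strand. The SPRR2 genes follow on the minus strand, in the order SPRR2D (153039732 to 153041931), SPRR2A (153056120 to 153057512), SPRR2B (153070226 to 153071611), SPRR2E (153093135 to 153106184), SPRR2F (153112121 to 153113516) and SPRR2G (153149582 to 153150890). No annotated gene on either strand overlaps any of the 9.

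Promoter sequences from RefSeq (GRCh38.p14, 250 bases before to 50 after the start) were at hand for 7 of the 9 members, all but SPRR2D and SPRR2E. Those of the 5 members whose levels are described at most length are shown. Across the 6 libraries the log2 levels of SPRR1A and SPRR3 had a Pearson r of 0.160. Among the SPRR2 genes, SPRR2A and SPRR2D had r = 0.886. SPRR2E had r = 0.716 with SPRR2D, 0.576 with SPRR2A and 0.692 with SPRR1A. Capitals mark 4 motifs: the AP-1 site TGANTCA, which reads the same on both strands, the octamer ATTTGCAT and the ETS-IRF composite element (GGAA, any 2 bases, then GAAA), each sought on both strands, and TATAAA on the gene's strand. The marked matches do not overlap each other.
SPRR1A (chr1:152983831-152984130, plus strand): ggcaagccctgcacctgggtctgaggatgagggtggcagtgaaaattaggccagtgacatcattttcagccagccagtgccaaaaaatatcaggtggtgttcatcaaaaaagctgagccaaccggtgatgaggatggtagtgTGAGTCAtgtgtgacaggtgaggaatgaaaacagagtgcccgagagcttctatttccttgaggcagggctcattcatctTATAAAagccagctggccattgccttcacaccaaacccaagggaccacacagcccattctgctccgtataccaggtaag
SPRR1B (chr1:153030953-153031252, plus strand): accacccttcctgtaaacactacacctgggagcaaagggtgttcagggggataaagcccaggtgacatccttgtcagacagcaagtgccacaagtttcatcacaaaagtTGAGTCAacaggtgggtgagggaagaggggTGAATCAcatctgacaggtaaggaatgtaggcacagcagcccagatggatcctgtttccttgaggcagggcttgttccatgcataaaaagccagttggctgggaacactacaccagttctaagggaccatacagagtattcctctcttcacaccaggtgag
SPRR3 (chr1:153001499-153001798, plus strand): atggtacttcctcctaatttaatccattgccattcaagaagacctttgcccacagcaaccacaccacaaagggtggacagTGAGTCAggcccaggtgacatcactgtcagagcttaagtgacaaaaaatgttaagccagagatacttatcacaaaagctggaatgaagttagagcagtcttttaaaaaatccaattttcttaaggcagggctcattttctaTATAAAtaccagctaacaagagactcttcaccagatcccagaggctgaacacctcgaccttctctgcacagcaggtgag
SPRR2A (chr1:153057463-153057762, minus strand): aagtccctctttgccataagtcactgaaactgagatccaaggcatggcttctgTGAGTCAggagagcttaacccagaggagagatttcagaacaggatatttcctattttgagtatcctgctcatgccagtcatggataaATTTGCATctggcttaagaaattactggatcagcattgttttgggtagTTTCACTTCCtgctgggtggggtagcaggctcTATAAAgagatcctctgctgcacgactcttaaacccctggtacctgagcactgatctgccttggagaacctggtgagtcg
SPRR2G (chr1:153150841-153151140, minus strand): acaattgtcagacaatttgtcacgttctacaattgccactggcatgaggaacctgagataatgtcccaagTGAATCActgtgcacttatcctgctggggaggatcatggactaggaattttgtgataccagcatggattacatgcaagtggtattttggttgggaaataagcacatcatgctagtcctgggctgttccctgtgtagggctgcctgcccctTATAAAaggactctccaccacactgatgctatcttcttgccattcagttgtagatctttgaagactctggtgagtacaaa
The AP-1 letters were found in 6 of the 7 family promoters and in 7.71% of 35116 promoters of the same length. They began at base -108 in SPRR1A, at -141 and again at -111 in SPRR1B, at -170 in SPRR3, at -197 in SPRR2A and at -180 in SPRR2G, counted from the start site. AP-1 factors, dimers of JUN and FOS proteins, are known to act at SPRR promoters in keratinocytes. The octamer was found in SPRR2A, SPRR2B and SPRR2F, which is 3 of 7, against 1.77% of all promoters. It was absent from the windows of SPRR2G, SPRR1A, SPRR1B and SPRR3. The composite element was found in SPRR2A alone, against 2.82% of all promoters, and TATAAA in 6 of 7, against 7.33%. The windows of SPRR2A and SPRR2F were 87.1% identical in a global alignment and those of SPRR1A and SPRR1B 66.5%. A match of letters is not a measured binding site.

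The SPRR1 genes were the most abundant members in 5 of the 6 libraries, and SPRR2B and SPRR2F were close to the limit of detection. Per kilobase of transcript, which allows levels to be compared between genes, SPRR1B averaged 29.4 CPM per kilobase over the 6 libraries and SPRR1A 23.6, followed by SPRR3 at 4.62 and SPRR2E at 2.88. SPRR2A at 1.95, SPRR2D at 1.73 and SPRR2G at 1.14 came next, and SPRR2B at 0.226 and SPRR2F at 0.198 were last. The means of the SPRR1 pair were carried by GFP replicate 1: without it SPRR1B averaged 15.3 and SPRR1A 10.7 CPM per kilobase, and the order of the 9 was the same. In untreated replicate 1 SPRR3, at 5.69 CPM per kilobase, was above SPRR1B at 3.64 and SPRR1A at 2.89. Neighbours in this order overlapped across libraries: SPRR1B ranged from 3.64 to 99.9 CPM per kilobase and SPRR1A from 2.89 to 87.8, while SPRR3 ranged from 0.793 to 10.5. In a bulk library, fewer cells that express a gene and less RNA per cell cannot be told apart.

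SPRR2 levels carry a further uncertainty, because these genes share long identical stretches. Of all 75-base windows in the SPRR2A transcript, 25.2% also occur in a transcript of another gene, all of them SPRR2 genes, and the share was 25.4% for SPRR2B, 18.3% for SPRR2E, 16.3% for SPRR2D, 4.66% for SPRR2F and 3.50% for SPRR2G. It was 0% for SPRR1A, SPRR1B and SPRR3. How reads that match several genes were counted is not given in the sources used here, so reads of the SPRR2 genes could be lost or assigned to a close copy.

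**Figure D1:**
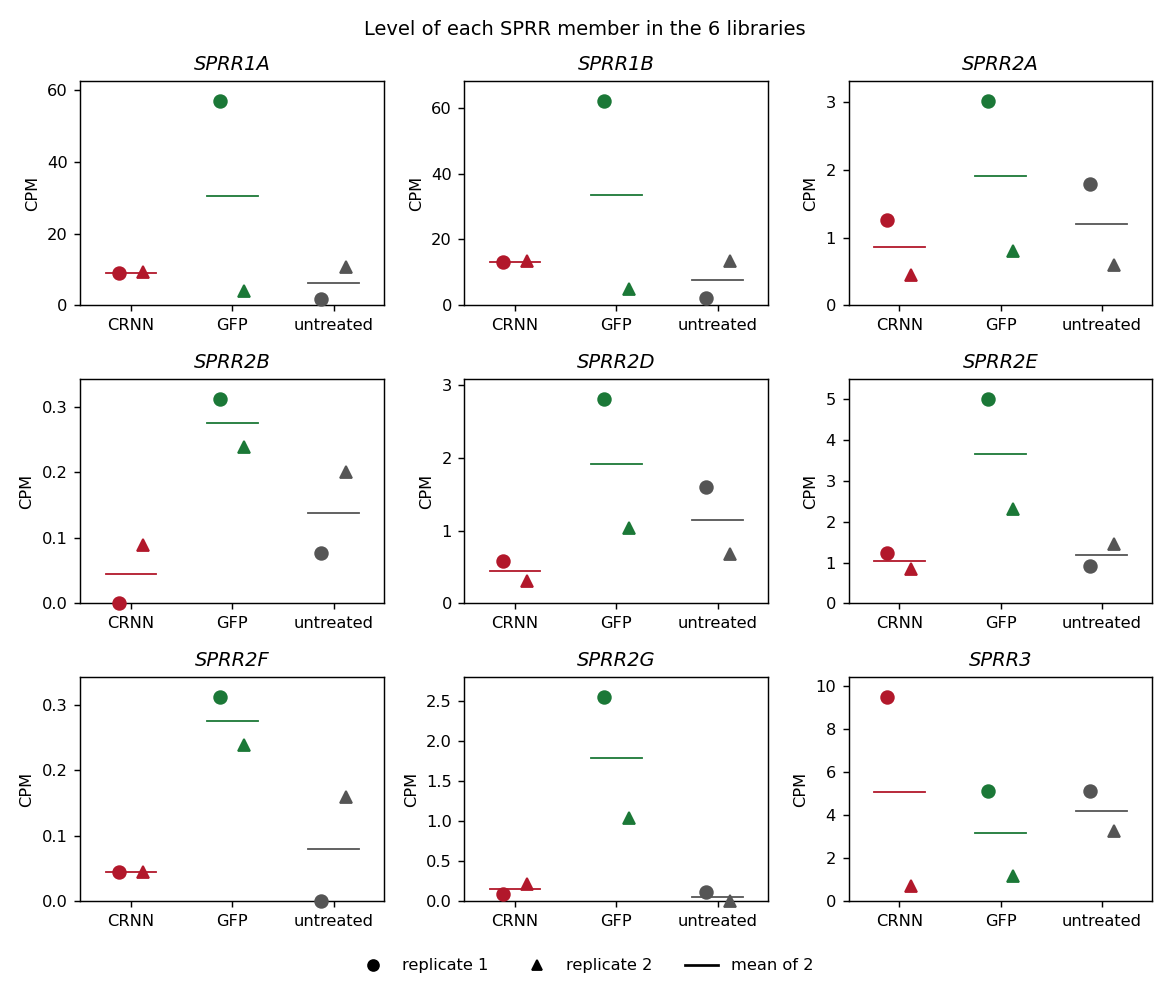
Level of each of the 9 members in CPM (vertical axis, starting at 0 and scaled per gene) in the CRNN, GFP and untreated libraries; circles are replicate 1, triangles replicate 2 and lines the mean of 2. GFP replicate 1 holds the highest point for every member except SPRR3, whose highest point, 9.47 CPM, is CRNN replicate 1.

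SPRR1A and SPRR1B, also called cornifin A and B, moved together across the libraries. SPRR1A had 8.93 and 9.32 CPM in the CRNN libraries (197 and 209 counts), 56.9 and 3.91 CPM in the GFP libraries (1095 and 49 counts) and 1.87 and 10.6 CPM in the untreated libraries (49 and 266 counts). SPRR1B had 13.1 and 13.4 CPM in CRNN, 61.9 and 5.11 CPM in GFP and 2.25 and 13.4 CPM in untreated cells. For both genes the CRNN libraries were close together and lay between the GFP replicates, while the untreated replicates differed in the opposite order to the GFP ones. The log2 levels of the pair had r = 0.995 over the 6 libraries, as a description, since they share library and depth. Within a library, SPRR1B had between 1.09 times the counts of SPRR1A, in GFP replicate 1 (95% exact interval 1.00 to 1.18), and 1.47 times, in CRNN replicate 1 (1.22 to 1.77); such intervals cover counting error only.

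For this pair the gap within the GFP group, and that within the untreated group, exceeded every fitted difference between groups. SPRR1A was 14.5-fold higher in GFP replicate 1 than in GFP replicate 2 (counting interval 10.9 to 19.8) and SPRR1B 12.1-fold (9.41 to 15.8). Of 16396 tested genes, 7 had GFP replicates at least as far apart as those of SPRR1A, and 13 as far as those of SPRR1B, each count including the gene itself. The ratio of untreated replicate 1 to replicate 2 was 0.176 for SPRR1A (0.127 to 0.239) and 0.169 for SPRR1B (0.126 to 0.223). In the CRNN group it was 0.959 (0.785 to 1.17) and 0.976 (0.828 to 1.15).

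SPRR3, also called esophagin and known as a protein of the lining of the mouth and oesophagus, did not follow the SPRR1 pair. It had 9.47 and 0.713 CPM in the CRNN libraries (209 and 16 counts), 5.14 and 1.20 CPM in the GFP libraries (99 and 15 counts) and 5.12 and 3.28 CPM in the untreated libraries (134 and 82 counts). The highest and the lowest SPRR3 levels of the study were thus the CRNN replicates, which differed 13.3-fold (counting interval 7.99 to 23.7). Only 2 of the 16396 tested genes, SPRR3 among them, had CRNN replicates this far apart. Its log2 levels had r = 0.160 with SPRR1A and 0.704 with SPRR2A over the 6 libraries. Counts of SPRR3 per count of SPRR1A were 1.06 in CRNN replicate 1 and 0.0766 in CRNN replicate 2, 0.0904 and 0.306 in the GFP replicates, and 2.73 and 0.308 in the untreated replicates.

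The SPRR2 genes were lower in both CRNN libraries than in both GFP libraries for 5 of the 6. Among the 7 tested SPRR members 3 had this order, as did 18.7% of all tested genes. SPRR2G, among these 3, was tested only through its GFP libraries. SPRR2E had 1.22 and 0.847 CPM in CRNN, 4.99 and 2.31 CPM in GFP and 0.917 and 1.44 CPM in untreated cells. SPRR2D had 0.589 and 0.312 CPM in CRNN, 2.80 and 1.04 CPM in GFP and 1.60 and 0.681 CPM in untreated cells. For both genes neither CRNN library reached the lower GFP library. SPRR2G, the last gene of the cluster, had 2 and 5 counts in CRNN, 49 and 13 counts in GFP and 3 and 0 counts in untreated cells. It was thus above the level of 3 counts in both GFP libraries, and in 1 of the other 4. SPRR2A had 1.27 and 0.446 CPM in CRNN, 3.01 and 0.798 CPM in GFP and 1.80 and 0.601 CPM in untreated cells, so that replicate 1 was the higher library in every group and the groups overlapped. SPRR2B had 0 and 2 counts in CRNN, 6 and 3 counts in GFP and 2 and 5 counts in untreated cells. SPRR2F had 1 and 1 counts in CRNN, 6 and 3 counts in GFP and 0 and 4 counts in untreated cells. Both are at the edge of what this depth can show.

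The make-up of the SPRR transcripts varied between libraries. The 9 members together had 34.7 and 25.4 CPM in CRNN, 138 and 15.9 CPM in GFP and 13.8 and 30.4 CPM in untreated cells. SPRR1A and SPRR1B made up 63.5% and 89.5% of these counts in the CRNN libraries, 86.1% and 56.8% in the GFP libraries and 30.0% and 79.1% in the untreated libraries. The share of SPRR3 was 27.3% (95% exact interval 24.2 to 30.6) in CRNN replicate 1 and 2.81% (1.61 to 4.52) in CRNN replicate 2, 3.73% and 7.54% in the GFP libraries, and 37.2% (32.2 to 42.4) and 10.8% in the untreated libraries. The 6 SPRR2 genes took 9.27% and 7.72% of the counts in CRNN, 10.1% and 35.7% of those in GFP, and 32.8% and 10.1% of those in untreated cells. The SPRR2 sum was 3.22 and 1.96 CPM in CRNN, 14.0 and 5.67 CPM in GFP and 4.51 and 3.08 CPM in untreated cells. Both CRNN sums were below both GFP sums, an order that 18.7% of tested genes had. Both untreated sums were below both GFP sums as well, as for 16.2% of tested genes, and the CRNN and untreated sums overlapped. These sums include SPRR2G, which was tested only through its GFP libraries.

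**Figure D2:**
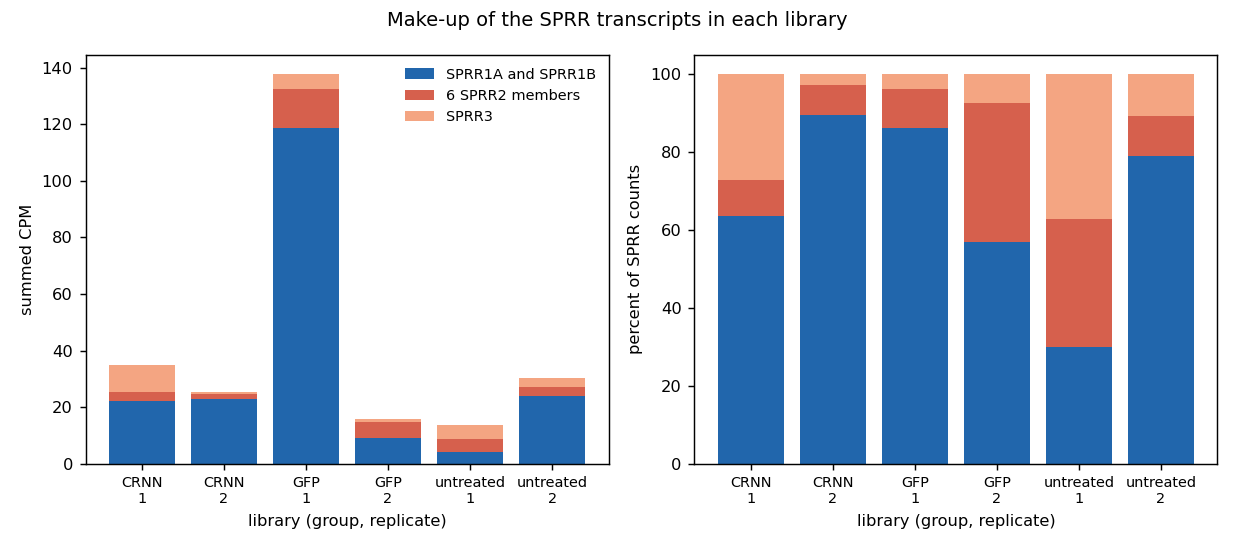
Summed CPM of the SPRR genes (left) and their share of all SPRR counts in percent (right) in each of the 6 libraries, stacked as SPRR1A and SPRR1B, the 6 SPRR2 genes, and SPRR3. GFP replicate 1 stands out with 138 CPM, and SPRR3 takes 27.3% of the counts in CRNN replicate 1 and 37.2% in untreated replicate 1.

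The comparison of CRNN with GFP holds transduction constant and sets the cornulin construct against the control vector. No member passed over all tested genes (edgeR quasi-likelihood test, two-sided, Benjamini-Hochberg adjusted p = 0.999 for each of the 7), where 0.0183% of genes were called, all of them higher in CRNN. Of the 7 tested members 6 had a negative log2 fold change and 1, SPRR3, a positive one. Their median was -1.74, beside -0.0017 over all tested genes. CRNN was lower without overlap for 3 of the 7 tested members (SPRR2D, SPRR2E and SPRR2G), beside 18.7% of tested genes. Of these, SPRR2G was tested only through its GFP libraries. Both untested members, SPRR2B and SPRR2F, were also lower without overlap, with 2 counts in CRNN and 9 in GFP each. No member was higher in CRNN without overlap, where the share of tested genes was 19.4%.

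SPRR2G passed the filter on low counts through its GFP libraries alone, so a difference was built into its being tested. Its fitted log2 fold change, -3.49 (SE 0.85), is therefore a description only. SPRR2D was at -2.11 (SE 0.68, 95% interval -3.65 to -0.57, unadjusted p = 0.0130, edgeR). SPRR2E was at -1.83 (SE 0.51, interval -2.99 to -0.67, unadjusted p = 0.00623, edgeR). These 3 were the members with an unadjusted p under 0.05, at which 2.90% of tested genes were lower in CRNN. The intervals are not adjusted for the number of genes. With no filter on low counts SPRR2G passed (adjusted p = 0.0322, edgeR), a setting that called 34 genes, beside 3 as reported. DESeq2 gave no adjusted p for SPRR2A, SPRR2D, SPRR2E and SPRR2G in this comparison, and by limma-voom 0 members passed.

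The SPRR1 pair and SPRR3 had wide intervals that included 0. SPRR1A had a log2 fold change of -1.74 (SE 1.03, interval -4.08 to 0.60) and SPRR1B of -1.34 (SE 0.99, interval -3.59 to 0.91). SPRR2A had -1.19 (SE 0.78, interval -2.95 to 0.58), and SPRR3 had 0.65 (SE 0.97, interval -1.55 to 2.85). The direction of SPRR1A, SPRR1B and SPRR2A rested on GFP replicate 1: without it the values were 1.23, 1.38 and 0.11, whereas SPRR2D, SPRR2E and SPRR2G were at -1.19, -1.15 and -2.67. Without CRNN replicate 1, SPRR3 was at -2.13. The plot of values with each library left out shows SPRR2D and SPRR2E below 0 in every fit, unlike the SPRR1 pair and SPRR2A. SPRR2G was below 0 as well, but it was tested only through its GFP libraries. Its direction is therefore a description only.

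**Figure D3:**
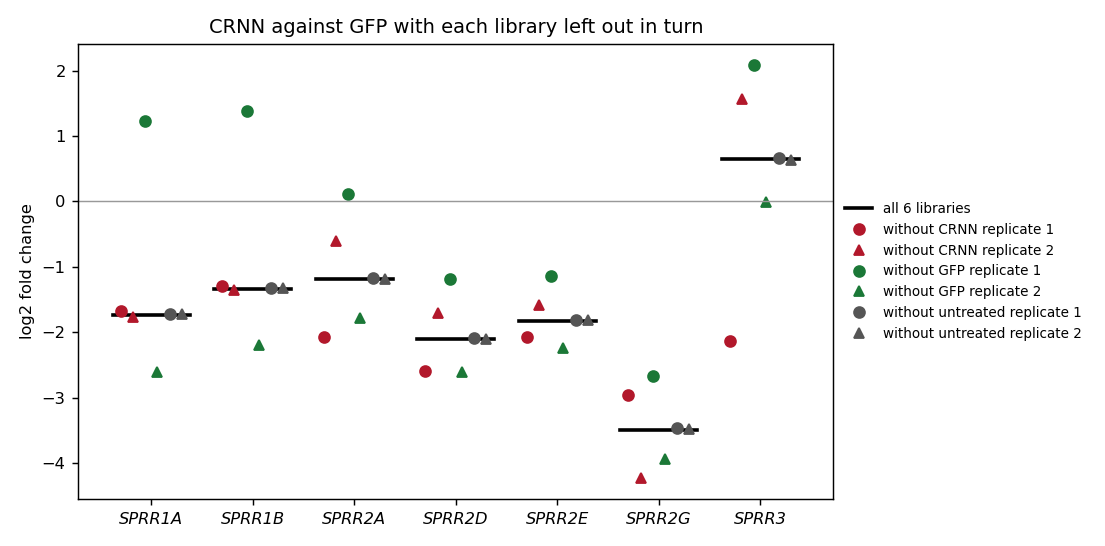
Log2 fold change of CRNN over GFP for the 7 tested members (vertical axis) in the fit of all 6 libraries (black lines) and with each library left out in turn (points). Without GFP replicate 1, SPRR1A, SPRR1B and SPRR2A lie above 0 at 1.23, 1.38 and 0.11, while SPRR2D, SPRR2E and SPRR2G lie below 0 in all 7 fits. Of these, SPRR2G was tested only through its GFP libraries.

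Set against untreated cells, the CRNN libraries differ by both the virus and its insert. The SPRR genes showed no common direction here. No member passed (edgeR, adjusted p between 0.989 and 0.995), with 0.00610% of genes called, and no member had an unadjusted p under 0.05 (4.48% of tested genes did). Of the 7, 4 values were positive and 3 negative, with a median of 0.28 beside -0.0091 over all tested genes. SPRR2D was the single member without overlap, lower in CRNN (18.4% of tested genes), at a log2 fold change of -1.34 (SE 0.68, interval -2.88 to 0.21). SPRR1A had 0.54 (SE 1.02, interval -1.78 to 2.87) and SPRR1B 0.76 (SE 0.99, interval -1.49 to 3.02). Both CRNN libraries were near untreated replicate 2 for this pair, and without untreated replicate 1 the values were -0.22 and -0.0089. SPRR2E had -0.19 (SE 0.52, interval -1.36 to 0.99), SPRR2A -0.48 (SE 0.78) and SPRR3 0.28 (SE 0.95, interval -1.88 to 2.43), or -2.53 without CRNN replicate 1. By DESeq2 and by limma-voom 0 members passed. SPRR2G, with 7 counts in CRNN and 3 in untreated cells, gave a ratio of summed counts per library size of 2.68 with a counting interval of 0.613 to 16.1.

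The comparison of GFP with untreated cells asks what the control vector and its transduction go with. SPRR2G and SPRR2E were higher in both GFP libraries than in both untreated ones. No member passed (edgeR, adjusted p between 0.711 and 0.934), and 0% of all genes were called, with 6.93% at an unadjusted p under 0.05. At that p 2 members, SPRR2E and SPRR2G, were higher in GFP, as were 4.03% of tested genes. Of the 7, 6 values were positive and SPRR3 was negative at -0.37 (SE 0.97), with a median of 1.64 beside -0.013 over all tested genes. Without overlap 2 of the 7 tested members were higher in GFP, SPRR2E and SPRR2G, as were 16.2% of tested genes, and SPRR2G was tested only through its GFP libraries. The untested SPRR2B (9 counts in GFP, 7 in untreated cells) and SPRR2F (9 counts in GFP, 4 in untreated cells) did not overlap in CPM either. This comparison shares its GFP libraries with the first one, so the values are not a second line of evidence.

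SPRR2G had 62 counts in GFP and 3 in untreated cells, a ratio of summed counts per library size of 33.3 with a counting interval of 10.9 to 166. Its fitted log2 fold change was 4.83 (SE 0.95), again with the filter passed through the GFP libraries alone and so a description only. SPRR2G passed with no filter on low counts (adjusted p = 0.00126, edgeR) and with DESeq2 (adjusted p = 0.0293). Those settings called 195 and 29 genes in this comparison, beside 0 as reported. The DESeq2 fit used the genes kept by the same filter, so its value for SPRR2G is likewise a description only. By limma-voom the adjusted p of SPRR2G was 0.724. SPRR2E had 1.64 (SE 0.50, interval 0.50 to 2.78, unadjusted p = 0.0101, edgeR). SPRR1A had 2.29 (SE 1.05, interval -0.10 to 4.68) and SPRR1B 2.11 (SE 1.02, interval -0.20 to 4.42), and without GFP replicate 1 these were -0.68 and -0.62. SPRR2D had 0.77 (SE 0.62) and SPRR2A 0.70 (SE 0.75), or -0.15 and -0.59 without GFP replicate 1.

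**Figure D4:**
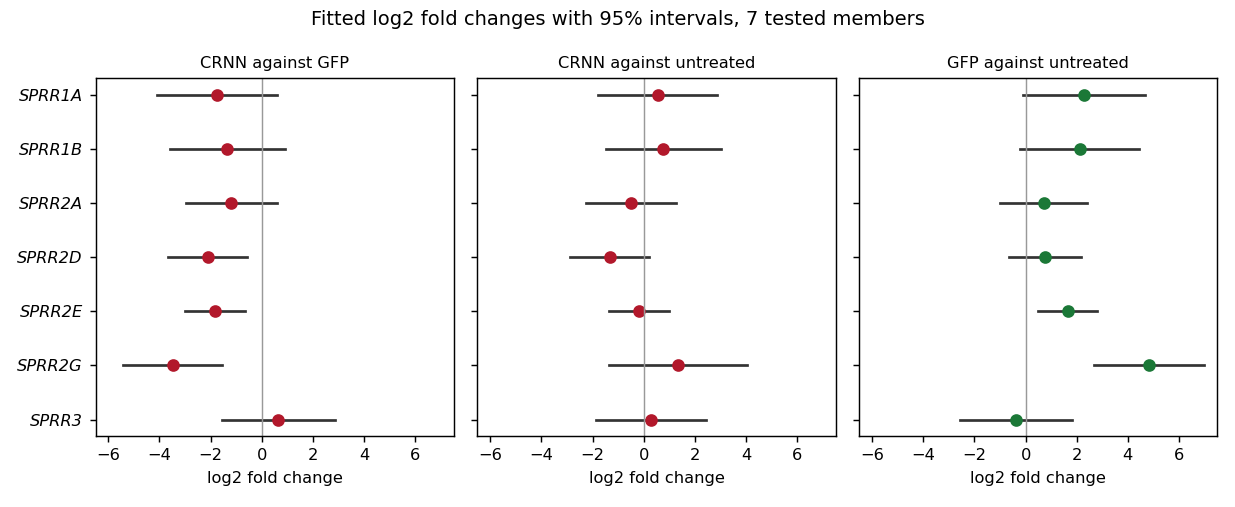
Fitted log2 fold changes (points, horizontal axis) with 95% intervals not adjusted for the number of genes (lines) of the 7 tested members in the 3 comparisons, a panel each. SPRR2D, SPRR2E and SPRR2G have intervals below 0 in CRNN against GFP, and SPRR2E and SPRR2G above 0 in GFP against untreated. SPRR2G was tested only through its GFP libraries.

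Of 22 other cornified envelope precursors 20 were tested, and 0 were called in any comparison (edgeR). At an unadjusted p under 0.05, 3 were lower in CRNN than in GFP (2.90% of tested genes), 4 were higher and 1 lower in CRNN than in untreated cells (1.52% and 2.96%), and 5 were higher and 2 lower in GFP than in untreated cells (4.03% and 2.90%). All genes lower than in untreated cells at that p were highest in untreated replicate 1. In CRNN against GFP 7 were positive and 13 negative, with a median of -0.16 beside the -1.74 of the tested SPRR members. Those with the highest levels were ANXA1, a calcium- and phospholipid-binding protein, DSP and JUP, which join keratin filaments to desmosomes, and PPL, which links the envelope to keratin filaments. PPL had 168 and 163 CPM in CRNN, 250 and 273 CPM in GFP and 224 and 208 CPM in untreated cells, with a log2 fold change of -0.66 over GFP (SE 0.25). ANXA1 had 0.43 (SE 0.30), DSP -0.10 (SE 0.36) and JUP -0.086 (SE 0.30).

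The transglutaminases that cross-link SPRR proteins were represented by TGM1, TGM2 and TGM3, the 3 of 6 that were tested. In CRNN against GFP 0 were called by edgeR, and 0 passed at an unadjusted p under 0.05. TGM1, the membrane-bound keratinocyte enzyme, had 2.67 and 3.12 CPM in CRNN, 2.18 and 1.36 CPM in GFP and 2.87 and 2.20 CPM in untreated cells. TGM3 had 2.31 and 0.490 CPM in CRNN, 2.597 and 1.756 CPM in GFP and 1.45 and 1.00 CPM in untreated cells. TGM3 thus shared with SPRR3 a higher level in CRNN replicate 1 than in CRNN replicate 2. TGM2, the widely expressed tissue transglutaminase, had 27.3 and 23.5 CPM in CRNN, 63.8 and 14.4 CPM in GFP and 135 and 12.2 CPM in untreated cells.

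Neighbours of the SPRR genes in the epidermal differentiation complex were mostly low. Of a list of 22 such neighbours, most but not all of them late cornified envelope (LCE) genes, 1 was tested, LCE3D. LCE3D passed the filter on low counts through its GFP libraries alone, so that no fold change is given for it. It had 0.136 and 0.0446 CPM in CRNN, 0.935 and 0.479 CPM in GFP and 0.153 and 0.400 CPM in untreated cells. Of the 6 S100 fused-type genes other than CRNN, 5 were tested and 0 called (edgeR). At an unadjusted p under 0.05, 1 was lower in CRNN than in GFP (2.90% of tested genes). At that p 2 were higher in GFP than in untreated cells (4.03%), FLG2 among them, which was high in GFP replicate 2 alone. The 5 tested genes had negative values over GFP, with a median of -1.45. However, 2 of the 5, FLG2 among them, would not have passed the filter without the GFP libraries, which favours a lower level in CRNN. FLG, the precursor of filaggrin, had 0.861 and 3.12 CPM in CRNN, 1.09 and 9.98 CPM in GFP and 0.649 and 1.72 CPM in untreated cells, and was thus highest in GFP replicate 2, where the SPRR1 pair was low. FLG2 (0.0907 and 0.847 CPM in CRNN, 0.104 and 6.07 CPM in GFP, 0.0382 and 0.0400 CPM in untreated cells) was highest in that library too. HRNR had a log2 fold change of -1.48 (SE 0.56) and TCHH of -1.03 (SE 0.93).

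Among 10 S100 and other genes of the complex, 7 were tested and 0 called (edgeR). In CRNN against GFP 2 were positive and 5 negative, with a median of -1.21. Of the 5 negative, 1 would not have passed the filter without the GFP libraries. At an unadjusted p under 0.05, 1 was lower in CRNN than in GFP (2.90% of tested genes). At that p 2 were higher in GFP than in untreated cells (4.03%). The genes at that p in these 2 comparisons were all highest in GFP replicate 1. S100A8, a subunit of the calcium-binding protein calprotectin, had 9.84 and 9.99 CPM in CRNN, 59.4 and 4.79 CPM in GFP and 6.38 and 7.89 CPM in untreated cells. It was highest in GFP replicate 1, as SPRR1A was. S100A9, its partner in calprotectin, had 36.0 and 33.3 CPM in CRNN, 142 and 17.4 CPM in GFP and 193 and 26.7 CPM in untreated cells, and was highest in untreated replicate 1, where SPRR1A was lowest. Log2 fold changes over GFP were -1.70 (SE 0.83) for S100A8 and -1.21 (SE 0.96) for S100A9. S100A10 and S100A11, at the far end of the complex, had log2 fold changes over GFP of 0.26 (SE 0.27) and 0.59 (SE 0.29).

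Of 27 transcription factors known from SPRR promoters or squamous differentiation, 25 were tested and 0 called in any comparison (edgeR). In CRNN against GFP 11 were positive and 14 negative, with a median of -0.073, and 1 was higher at an unadjusted p under 0.05, as were 1.49% of tested genes. In CRNN against untreated 6 were lower at that p, FOSL1 among them, and 1 was higher, where 2.96% of tested genes were lower and 1.52% higher. All 6 had their highest level in untreated replicate 1, and 1 of them passed the filter through its untreated libraries alone. In GFP against untreated 2 were lower, as were 2.90% of tested genes, and both were highest in untreated replicate 1. FOSL1, an AP-1 subunit, had 38.4 and 31.6 CPM in CRNN, 241 and 30.2 CPM in GFP and 636 and 37.8 CPM in untreated cells. FOSL1 and the SPRR1 pair were both high in GFP replicate 1, but in untreated replicate 1 FOSL1 reached its highest and SPRR1A its lowest level. TP63, a regulator of the squamous lineage, had 380 and 468 CPM in CRNN, 153 and 435 CPM in GFP and 195 and 294 CPM in untreated cells, and was lowest in GFP replicate 1. EHF, an epithelial ETS factor, had 218 and 227 CPM in CRNN, 132 and 336 CPM in GFP and 74.0 and 260 CPM in untreated cells.

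Outside the family, the genes whose log2 level across the 6 libraries was most like the summed SPRR level were H2BC5 (r = 0.998), ASPSCR1 (0.996), STARD3 (0.990), H4C3 (0.990) and ETV5 (0.989), among 11411 named genes. H2BC5 and H4C3 encode histones, and ETV5 is an ETS transcription factor. H2BC5 had 471 and 413 CPM in CRNN, 756 and 347 CPM in GFP and 319 and 443 CPM in untreated cells, a span of far smaller folds than that of the SPRR sum. For SPRR1A the most similar gene was INPP5K (r = 0.994), which was also among the 5 closest to SPRR1B (0.988). For SPRR3 no gene exceeded r = 0.966, that of ADAT3. Such values describe these 6 libraries only, and all genes of a library share its depth and its GC trend.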

How the data were processed

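The deposited table holds raw counts as the authors made them, whole numbers per versioned Ensembl gene whose totals differ between libraries. Per the labels, the libraries were stranded total RNA, and sequencing was paired-end. Tools named without roles in the submitters' processing notes are edgeR, HTSeq 0.6.1, STAR 2.6, FastQC 0.11.7 and bcl2fastq, and more than 1 human genome build is listed there. The annotation, the build used for these counts and the strand setting are not given in the sources used here. Names and coordinates came from GENCODE release 44 by identifier without version.

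Genes were kept by filterByExpr (minimum count 10, minimum total 15), which left 16396. One edgeR fit held all 6 libraries (edgeR 4.0.16, R 4.3.3; TMM, quasi-likelihood F test, no covariate, original dispersion method), so that groups of 2 share 1 estimate of the spread. P-values were adjusted over all tested genes and a gene was called at 0.05. The SE is the log2 fold change divided by the square root of F. SPRR2B and SPRR2F did not pass the filter and are given as counts. Levels are CPM. Per-kilobase values use the canonical transcript. Replicate gaps and likeness (Pearson r) used log2(CPM + 0.1), and likeness was limited to genes whose mean on that scale was at least 1.

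Named are the 9 members, CRNN, up to 4 genes with the highest level from each of 6 lists, and the 5 genes most like the summed level (1 gene that this rule names is not reported here); the members and lists were chosen with earlier results of these data known. Alternatives were RLE or no scaling factors, no filter, DESeq2 1.42.0, limma-voom (limma 3.58.1), a fit of 2 groups, a replicate block, a GC and length correction with and without that block, each library left out, and, chosen after the data were seen, edgeR's newer dispersion method. The procedure was tested on simulated data. No table column went unused (0), and libraries were not paired by number.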

Additional observations from a re-analysis of the deposited data

How the results depend on the processing

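Of 331 alternative log2 fold changes, for 7 members in 3 comparisons, 305 kept their direction and their side of the threshold, 22 changed sign and 4, all of SPRR2G, passed where the fit as reported did not; 4 further values, by DESeq2 in CRNN against GFP, had no adjusted p and are left out, and SPRR2G in CRNN against untreated gave no value with only the 2 groups compared, where it did not pass the filter. Except with no filter, SPRR2G was tested only through its GFP libraries, so its passing there is a description only. The numbers of genes called over the whole table changed with the processing. In CRNN against GFP, 3 genes were called as reported, 34 with no filter, 22 by DESeq2, 13 with only the 2 groups compared, 1 after the GC and length correction, 1 with that correction and the replicate block, and 0 to 15 with a library left out. In CRNN against untreated, 1 gene was called as reported, 152 with no filter, 7 by DESeq2 and 1 to 957 with a library left out. In GFP against untreated 0 genes were called as reported (1137 at an unadjusted p under 0.05, edgeR), 195 with no filter, 29 by DESeq2, 0 by limma-voom and 0 to 966 with a library left out. The highest leave-one-out counts, 957 and 966, came without untreated replicate 2, and 0 in CRNN against GFP came without either GFP library. With the replicate block 4, 1 and 0 genes were called in the 3 comparisons. Libraries of different groups share only a replicate number: the replicate differences of CRNN correlated with those of GFP at r = 0.26 and with those of the untreated group at -0.071, and those of GFP with the untreated ones at 0.19.

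With a library left out, log2 fold changes in CRNN against GFP ranged from -2.62 to 1.23 for SPRR1A, from -2.20 to 1.38 for SPRR1B, from -2.08 to 0.11 for SPRR2A and from -2.13 to 2.09 for SPRR3. In CRNN against untreated they ranged from -0.22 to 2.29 for SPRR1A, from -0.0089 to 2.56 for SPRR1B, from -1.40 to 0.51 for SPRR2A, from -0.47 to 0.18 for SPRR2E and from -2.53 to 1.16 for SPRR3. In GFP against untreated they ranged from -0.68 to 4.01 for SPRR1A, from -0.62 to 3.89 for SPRR1B, from -0.59 to 1.68 for SPRR2A, from -0.15 to 1.505 for SPRR2D and from -1.81 to 0.27 for SPRR3. SPRR3 also turned negative by limma-voom (-0.055 over GFP and -0.65 over untreated cells), and over untreated cells with the replicate block (-0.47) and with the GC and length correction and that block (-0.49). The cause was not tested. Members under about 20 counts per library, all of them SPRR2 genes but for SPRR3 in 2 libraries, are limited by counting error.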

Other observations

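Besides SPRR3, a single tested gene had CRNN replicates as far apart. This was MAL, a membrane protein of apical transport that is abundant in stratified mucosal epithelium, with 39 counts in CRNN replicate 1 and 0 in CRNN replicate 2. It was chosen after its values were seen. The 2 CRNN libraries had almost the same level of CRNN itself (964 and 1028 CPM), of SPRR1A (8.93 and 9.32 CPM) and of SPRR1B (13.1 and 13.4 CPM). SPRR4, a further gene of the family that is not among the 9, had 1 and 1 counts in CRNN, 13 and 0 counts in GFP and 1 and 3 counts in untreated cells. SPRR2C, annotated as a pseudogene, had 1 count in untreated replicate 1 and 0 in the other libraries. In untreated replicate 1 SPRR2E had 0.571 times the counts of SPRR2D (counting interval 0.331 to 0.966), against 1.78 to 2.71 times in the other 5 libraries.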
